A study of Homo sapiens with 4 samples.

Results

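The 10 genes described here act where translation ends or fails: *PELO*, *HBS1L*, *ABCE1*, *ETF1*, *GSPT1*, *LTN1*, *NEMF*, *TCF25*, *USP10* and *RNF10*. They were found by symbol, and all 10 are among the 20457 features of each expression table. The study depleted CNOT4 in HEK293, an established human line of embryonic kidney origin, and asked how CNOT4 affects the link between codon usage and expression. CNOT4 adds ubiquitin to proteins through a RING domain and binds the CCR4-NOT deadenylase. In the siCNOT4 group (labelled genotype CNOT4 knockdown) 2 samples received siRNA against CNOT4, and in the siControl group (labelled WT) 2 samples received a negative control siRNA, each at 10 nM for 72 h. Both groups thus carry transfected siRNA, the knockdown is transient, and the siRNA sequence is not used here. The labels do not say whether replicates were separate cultures, so the p-values below measure the spread between these samples, which may be technical.

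A ribosome that reaches a stop codon is served by the release factor eRF1 (*ETF1*), which reads the stop codon and frees the peptide, and by its GTPase partner eRF3 (*GSPT1*). A ribosome that stalls elsewhere can be rescued by Pelota (*PELO*), a relative of eRF1, with the GTPase HBS1L, a relative of eRF3. In both cases the ATPase ABCE1 splits the ribosome into subunits. A peptide left on the large subunit is bound by NEMF, ubiquitinated by the E3 ligase listerin (*LTN1*) with the help of TCF25, and degraded. On the small subunit, the ligase RNF10 adds ubiquitin to ribosomal proteins of stalled complexes and the deubiquitinase USP10 removes it. ABCE1 is also a known ubiquitination target of CNOT4 under mitochondrial stress.

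The values are TPM, in which read counts are divided by gene length and scaled to the same sum in every library, so levels can be compared between genes. *CNOT4* itself was at 6.43 and 4.73 TPM in siControl and at 3.38 and 3.81 TPM in siCNOT4, a log2 fold change of -0.51 (limma adjusted p 0.184) that was -0.32 without siControl replicate 1. Limma called *CNOT4* lower after TMM scaling (-0.93, adjusted p 0.0362), after quantile normalization (-1.15, adjusted p 0.0252) and after removal of length and GC trends (-1.14, adjusted p 0.0113). Steps among low values put the depth at 29800000 to 31800000 reads per library and the 10 genes at 1454 to 11748 reads each. These depths are rough, since 27.2% to 32.6% of the low values lay within 0.02 reads of a whole number when the annotated exon lengths were used. siControl replicate 2 stood apart: across 14208 genes with a mean of at least 1 TPM, siControl replicate 1 exceeded it by a median of 0.38 on the log2(TPM + 1) scale, while the siCNOT4 replicates differed by a median of -0.030. The median gene was higher in siCNOT4 by 0.50 on that scale. Of 10 HEK293 markers, 9 reached 1 TPM (all but *NEFM*), with sums of 1591 to 1865 TPM in siControl and 1329 to 1338 TPM in siCNOT4. The lower sum came mainly from *VIM*, at 917 and 650 TPM in siControl and at 369 and 354 TPM in siCNOT4. *NEFL* was also lower, at 384 and 346 TPM in siControl and at 336 and 307 TPM in siCNOT4. *INA*, *LHX1*, *KRT18*, *PAX2* and *NEFM* had higher values in both siCNOT4 libraries, and the other markers overlapped between the groups. Markers of blood cells (4 genes) summed to at most 1.72 TPM and those of liver cells (3 genes) to at most 0.438 TPM, and no listed marker was at 0 in every library. Epithelial carcinoma markers (4 genes) summed to 244 to 263 TPM, nearly all of it *EPCAM*, at 245 and 262 TPM in siControl and at 242 and 238 TPM in siCNOT4. Hidden in that sum, *CDH1* was at 1.17 and 0.635 TPM in siControl and at 6.02 and 6.03 TPM in siCNOT4. *KRT5* and *KRT14* were at most at 0.177 TPM. Fibroblast markers (4 genes) summed to 1.13 to 1.62 TPM in siControl and 9.08 to 9.49 TPM in siCNOT4, from *COL1A1* and *LUM*, and their part in the results was not tested. In bulk RNA, fewer cells of a kind and less RNA per cell cannot be told apart.

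Since the study concerned codon usage, the coding sequences are shown first. GC3, the percentage of codons with G or C as their last base, was taken from the longest complete coding sequence of each gene in GENCODE 29 (GRCh38). It had a median of 59.0% over 12873 tested genes and was 31.4% in *ABCE1*, 33.3% in *NEMF* and in *HBS1L*, 35.4% in *LTN1*, 38.2% in *ETF1*, 46.9% in *GSPT1* and 48.9% in *USP10*. Only *PELO* (68.8%) and *TCF25* (72.9%) lay above that median, and *RNF10* was close below it (56.3%). The lines below show 10 codons from each of the extremes, the earliest in-frame stretch whose GC3 is nearest to that of the whole gene, with the last base of each codon in capitals.
ABCE1: agAatTgcTatTgtCaaCcaTgaCaaAtgT
NEMF: ttGctAggAatGagAgtAaaCaaTgtTtaT
PELO: ttCgaCtcTcaAgcCtgCcaGctGcgGgtT
TCF25: ggGccCggCgcCttGcaTttCgaTctCcgT
In these stretches 3 of 10 codons end in G or C in *ABCE1* and in *NEMF*, and 7 of 10 in *PELO* and in *TCF25*. The genes also differ in length. The representative transcripts of *LTN1*, *HBS1L*, *GSPT1* and *NEMF* measure 7756, 7163, 7105 and 6234 bases, against a median of 3109 bases, whereas those of *RNF10*, *TCF25* and *USP10* measure 2671, 2688 and 2717 bases.

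The levels of the 10 genes ran from 33.4 to 194 TPM in siControl replicate 1 and from 15.5 to 133 TPM in siControl replicate 2. In siCNOT4 they ran from 47.4 to 254 TPM in replicate 1 and from 47.1 to 257 TPM in replicate 2. *ETF1* was the highest of the 10 in all 4 libraries. In siControl it was followed by *TCF25*, with means of 164 ± 43.0 and 97.3 ± 1.97 TPM (SD, n = 2), then by *GSPT1* (82.4 ± 15.4), *RNF10* (69.4 ± 7.67), *ABCE1* (63.5 ± 22.7) and *USP10* (52.2 ± 22.4). *PELO* (32.2 ± 4.30), *HBS1L* (30.6 ± 5.16), *NEMF* (26.9 ± 9.15) and *LTN1* (26.9 ± 16.0) were lowest, and their ranges of 1 SD overlapped. Those of neighbours from *GSPT1* to *USP10* also overlapped. These SDs are between libraries and do not compare genes within a library. In each siControl library *PELO* was above *HBS1L* and *HBS1L* above *NEMF*. *GSPT1* was above *RNF10* and *ABCE1* in each, and both of these were above *USP10*. In siCNOT4, *TCF25* was at rank 4 in both libraries, behind *GSPT1* in both, and *LTN1* ranked above *PELO*, *HBS1L* and *NEMF* in both. *LTN1* also ranked above these genes in siControl replicate 1, at rank 7 as in siCNOT4, and was lowest of the 10 only in siControl replicate 2.

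**Figure D1:**
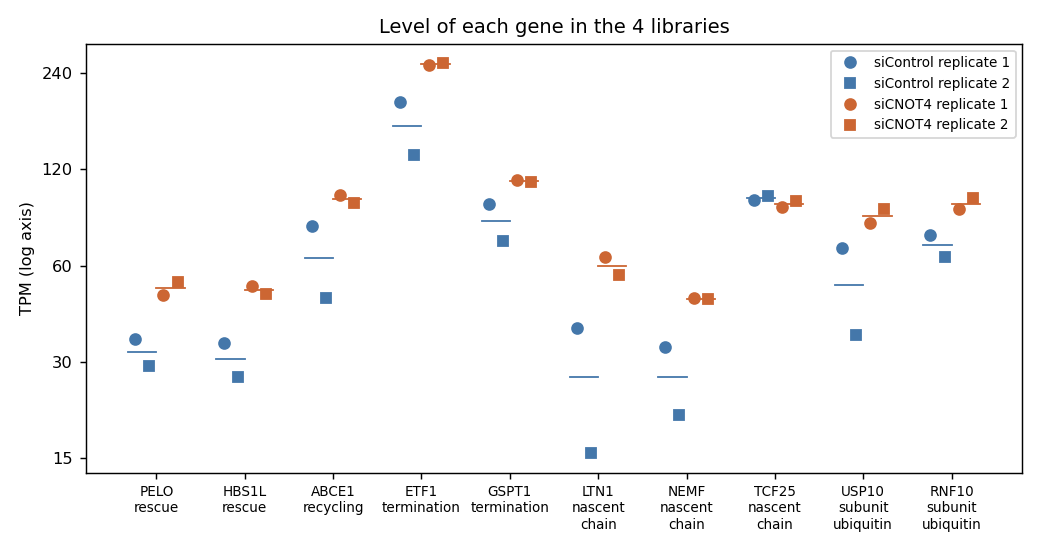
TPM (log axis) of each gene in the 4 libraries. Points are libraries, horizontal lines are group means. All genes but TCF25 have both siCNOT4 points above both siControl points, and siControl replicate 2 is the lowest point of each of those 9 genes.

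In the comparison of siCNOT4 with siControl, 9 of the 10 genes had both siCNOT4 libraries above both siControl libraries, and *TCF25* had both below. All 10 passed the filter on low values. Over all tested genes, 66.4% were above in that sense and 10.6% below. No member had a limma adjusted p under 0.05, against 12.6% of all tested genes. At an unadjusted p under 0.05 there were 8 members by the same limma fit, all higher, against 38.0% of all genes in that direction. Genes called over the whole table were 11.3% higher and 1.30% lower. The members' log2 fold changes, siCNOT4 over siControl on the log2(TPM + 1) scale, had a median of 0.66 and ranged from -0.058 (*TCF25*) to 1.25 (*LTN1*), beside the median of 0.50 over all genes. After TMM scaling, which brought the median of all genes to 0.027, the members' median was 0.14, 5 members lay wholly above and 2 wholly below siControl (36.4% and 33.4% of all genes), and 0 were called (9.40% of all genes). After TMM scaling 1 member, *TCF25*, had an unadjusted limma p under 0.05, on the lower side (17.3% of all genes).

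These calls depended on the siControl libraries. Without siControl replicate 2, limma called 9 members higher (47.2% of all genes), and without siControl replicate 1 it also called 9 (70.9% of all genes). In each case *TCF25* was the member not called, the lone siControl library was assumed to vary like the siCNOT4 pair, and the siCNOT4 replicates lay close together. With the replicate number as a block 3 members were called higher, *ETF1*, *LTN1* and *USP10* (23.5% of all genes). The labels do not say that the numbers pair the libraries. Without siCNOT4 replicate 1 or 2, limma called 0 members (3.35% and 3.17% of all genes). After TMM scaling, 6 members were called without siControl replicate 1 (71.3% of all genes): *ABCE1*, *ETF1*, *LTN1*, *NEMF* and *USP10* higher and *TCF25* lower. Without siControl replicate 2 there were 2, *LTN1* higher and *TCF25* lower (50.5% of all genes), and without siCNOT4 replicate 1 or 2 there were 0 (3.58% and 3.70%). With a pseudocount of 0.1, no filter, a mean of at least 5 TPM or no eBayes trend, limma also called 0 members (3.93%, 4.60%, 1.29% and 5.32% of all genes).

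**Figure D2:**
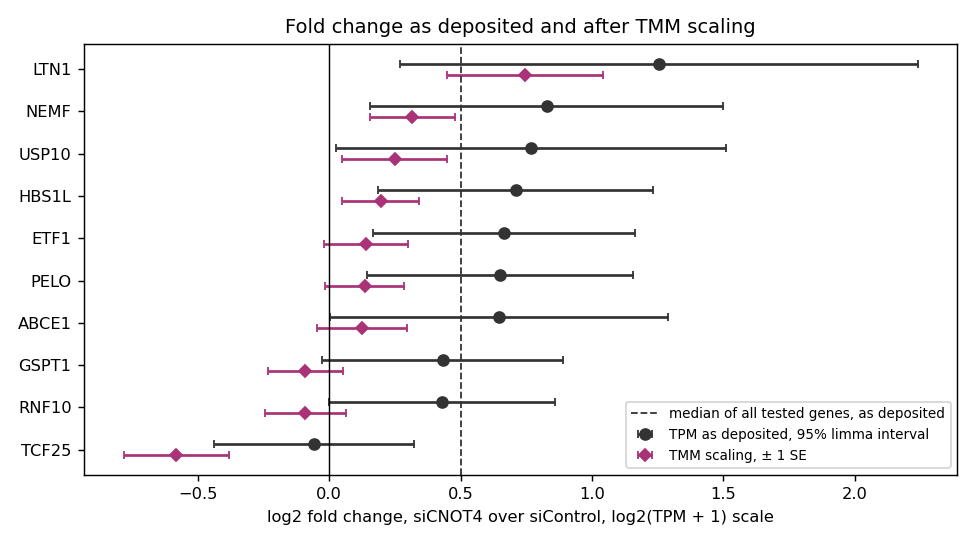
Log2 fold change of each gene, siCNOT4 over siControl, on the log2(TPM + 1) scale. Circles are TPM as deposited with 95% limma intervals, diamonds are values after TMM scaling with 1 SE, and the dashed line is the median of all tested genes. LTN1 is highest and TCF25 lowest under both, and the diamonds of GSPT1 and RNF10 fall below 0.

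Among the rescue factors, *PELO* (chromosome 5, 52787940 to 52804046, GRCh38, as all coordinates here) was at 35.2 and 29.2 TPM in siControl and at 48.5 and 53.3 TPM in siCNOT4. The 2 groups did not overlap, and the ratio of their means was 1.58. For *PELO* the log2 fold change was 0.65 (SE 0.21, limma adjusted p 0.0758). *HBS1L* (chromosome 6, 134960378 to 135103056) was at 34.3 and 27.0 TPM in siControl and at 51.8 and 49.0 TPM in siCNOT4, again without overlap. Its log2 fold change was 0.71 (SE 0.22, limma adjusted p 0.0689), the smallest adjusted p of the 10. The 2 partners thus had like levels in each library and like differences between groups. After TMM scaling the values were 0.13 for *PELO* and 0.20 for *HBS1L*, with limma adjusted p values of 0.532 and 0.361. *MIR3662*, a miRNA gene within an intron of *HBS1L* that shares 0 exon bases with it, was at 0.812 and 0.716 TPM in siControl and at 9.38 and 2.59 TPM in siCNOT4 (limma adjusted p 0.0566), but these values rest on an estimated 1 to 11 reads per library. *PELO* shares 475 annotated exon bases with *ITGA1* on the same strand, and *ITGA1*, an integrin gene, was at 8.66 and 3.27 TPM in siControl and at 11.5 and 10.6 TPM in siCNOT4.

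Of the termination factors, *ETF1* (chromosome 5, 138506095 to 138543300) was at 194 and 133 TPM in siControl and at 254 and 257 TPM in siCNOT4. The siCNOT4 replicates lay close together above both siControl replicates, which were far apart. For *ETF1* the log2 fold change was 0.67 (SE 0.20, limma adjusted p 0.0702), and 0.40 without siControl replicate 2. *GSPT1* (chromosome 16, 11868128 to 11916082) was at 93.3 and 71.5 TPM in siControl and at 111 and 110 TPM in siCNOT4, with no overlap. Its log2 fold change was 0.43 (SE 0.19, limma adjusted p 0.134), below the median of all genes. It was 0.24 without siControl replicate 2 and -0.091 after TMM scaling. *GSPT2*, an intronless relative that also encodes an eRF3 protein and could share reads with *GSPT1*, was at 11.7 and 9.03 TPM in siControl and at 18.4 and 18.5 TPM in siCNOT4. Its log2 fold change was 0.78 (limma adjusted p 0.0863).

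The recycling ATPase gene *ABCE1* (chromosome 4, 145097932 to 145129179) was at 79.6 and 47.5 TPM in siControl and at 99.7 and 94.1 TPM in siCNOT4. All siCNOT4 values were above all siControl values, but the siControl replicates differed more from each other than siControl replicate 1 did from siCNOT4. The log2 fold change was 0.65 (SE 0.27, limma adjusted p 0.118). Without siControl replicate 2 it was 0.28, without siControl replicate 1 it was 1.01, and after TMM scaling it was 0.13. The annotation places exons of *ANAPC10* and *OTUD4* on the opposite strand over 469 and 276 of its exon bases. Their log2 fold changes were 0.54 and 1.42, and the strand setting of the counting is not given in the sources used here.

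The factors that handle the stranded peptide differed most among themselves. *LTN1* (chromosome 21, 28928144 to 28992956) was at 38.2 and 15.5 TPM in siControl and at 63.9 and 55.9 TPM in siCNOT4. The groups did not overlap and the ratio of means, 2.23, was the largest of the 10 genes. The log2 fold change was 1.25 (SE 0.41, limma adjusted p 0.0769), 0.74 after TMM scaling (limma adjusted p 0.138) and 0.63 without siControl replicate 2. The siControl replicates differed by 1.24 on the same scale, as much as the groups did. Counting error did not cover this, since the 95% Poisson intervals on the estimated reads were 37.0 to 39.4 TPM and 14.8 to 16.3 TPM. Such intervals cover counting error only, because PCR copies cannot be told from separate molecules, and they rest on the rough depths above.

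*NEMF* (chromosome 14, 49782083 to 49853203) was at 33.4 and 20.5 TPM in siControl and at 47.4 and 47.1 TPM in siCNOT4. The siCNOT4 values lay together above both siControl values. The log2 fold change was 0.83 (SE 0.28, limma adjusted p 0.0812), 0.49 without siControl replicate 2 and 0.32 after TMM scaling. *KLHDC2* on the opposite strand shares 3010 exon bases with *NEMF* in the annotation. *KLHDC2*, which encodes a substrate receptor of a ubiquitin ligase, was at 61.7 and 42.6 TPM in siControl and at 101 and 97.5 TPM in siCNOT4, with a log2 fold change of 0.94 (limma adjusted p 0.0475).

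*TCF25* (chromosome 16, 89873570 to 89913627) was at 95.9 and 98.7 TPM in siControl and at 91.5 and 95.3 TPM in siCNOT4. It was the member with the closest siControl replicates and the only one with lower values in siCNOT4, where the higher library lay just under the lower siControl library. Its log2 fold change was -0.058 (SE 0.16, 95% limma interval -0.44 to 0.32, limma adjusted p 0.786). Relative to the median of all genes it was -0.56, with 16.2% of tested genes below it. After TMM scaling it was -0.58 (SE 0.20, limma adjusted p 0.106), after quantile normalization -0.34 (limma adjusted p 0.120), and after removal of length and GC trends -0.38 (limma adjusted p 0.0912). The same-strand gene *MC1R* shares 547 exon bases with it and was at 2.07 to 4.05 TPM.

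The enzymes that act on ubiquitin of the small subunit were *USP10* and *RNF10*. *USP10* (chromosome 16, 84699978 to 84779922) was at 68.0 and 36.4 TPM in siControl and at 81.2 and 90.1 TPM in siCNOT4. The groups did not overlap, and the log2 fold change was 0.77 (SE 0.31, limma adjusted p 0.112). Without siControl replicate 2 the value was 0.33, without siControl replicate 1 it was 1.21, and after TMM scaling it was 0.25. *RNF10* (chromosome 12, 120533480 to 120577594) was at 74.8 and 64.0 TPM in siControl and at 89.8 and 97.4 TPM in siCNOT4. Its log2 fold change was 0.43 (SE 0.18, limma adjusted p 0.118), below the median of all genes, and -0.092 after TMM scaling. *COQ5*, a coenzyme Q synthesis gene on the opposite strand, shares 84 exon bases with *RNF10* and had a log2 fold change of -0.030.

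The rank of a gene within its own library does not change with a scaling factor. *LTN1* was above 70.1% and 56.1% of tested genes in the siControl libraries and above 78.5% and 75.1% in the siCNOT4 libraries. *TCF25* was above 87.6% and 89.3% in siControl and above 84.9% and 85.4% in siCNOT4. *ETF1* was above 94.5% and 92.1% in siControl and above 95.8% and 95.7% in siCNOT4. Under quantile normalization, which compares libraries by rank, 9 members had both siCNOT4 libraries above both siControl libraries (36.2% of all genes) and *TCF25* had both below (33.4%). Even so 0 of the 10 were called (15.3% of all genes), and 3 had an unadjusted limma p under 0.05, *ETF1* and *LTN1* higher and *TCF25* lower (38.6% of all genes in either direction).

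The fold changes were then set against codon composition. Across 12873 tested genes, the log2 fold change was lower at higher GC3 (Spearman rho -0.338), and over the 10 members rho was -0.54. The removal of length and GC trends acts over all genes, so a small rho there is largely built in. After it rho was -0.068 over all genes and 0.091 over the members, the latter with its sign turned. These points are genes of the same 4 libraries and share their depth and base composition trends, so the values are descriptions. The genes lowest in GC3, an equal-sized class from 22.2% to 41.5%, had a median log2 fold change of 0.77 and held *HBS1L*, *ABCE1*, *ETF1*, *LTN1* and *NEMF*. *LTN1* and *NEMF* lay above that median, and *HBS1L*, *ABCE1* and *ETF1* below it. The members of the next such class, *GSPT1* (0.43) and *USP10* (0.77), lay on either side of its median of 0.62, and *RNF10* (0.43) was near the 0.47 of the middle class. *PELO* and *TCF25*, whose codons are shown above, were in the class from 64.9% to 75.5%, with a median of 0.37. Their values were 0.65 and -0.058. Their whole transcripts are less alike, with a GC content of 45.3% in *PELO* and 60.1% in *TCF25* and lengths of 4349 and 2688 bases.

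Fold changes were also higher at greater transcript length across genes (Spearman rho 0.399), and over the 10 members rho was 0.60. With those trends removed, the values were 0.028 and -0.079. The value over all genes is small by design, since the length trend over all genes was what was taken out. When a trend on transcript length and GC content was removed from each library, the members' log2 fold changes ran from -0.42 (*GSPT1*) to 0.31 (*USP10*), with a median of -0.050, and 0 were called (24.7% of 13738 genes). At an unadjusted limma p under 0.05 there was 1, *TCF25*, lower (22.1% of genes). *LTN1* was then 0.29 (limma adjusted p 0.196), *PELO* -0.012, *ETF1* -0.013, *NEMF* -0.081, *ABCE1* -0.14 and *HBS1L* -0.21. That removal also brought the median of all genes from 0.50 to -0.0020. *PELO*, *ETF1*, *NEMF*, *ABCE1*, *HBS1L*, *GSPT1* and *RNF10* thus changed direction. Of these, *GSPT1* and *RNF10* lay below the median of all genes already as deposited (-0.069 and -0.071 relative to it), and the others above it. Which part came from the trend and which from the shift of the median was not tested.

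**Figure D3:**
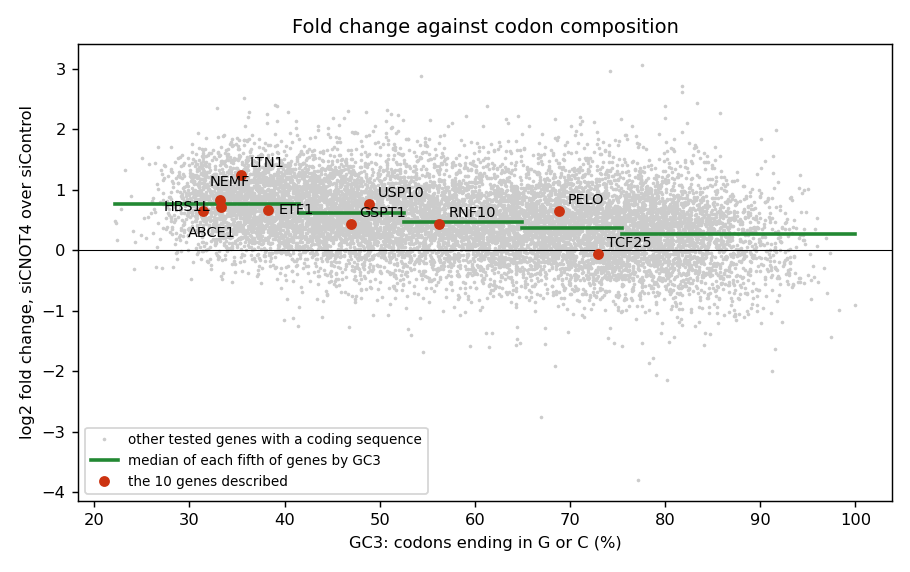
Log2 fold change, siCNOT4 over siControl, against GC3 in percent. Grey points are tested genes with a complete coding sequence, green lines the medians of 5 equal-sized classes by GC3, and red points the 10 genes. Of the members, 5 sit in the lowest class. PELO and TCF25 have similar GC3 and different fold changes, and their transcripts differ in GC content and length. Whether these properties bear on the fold changes was not tested.

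Ratios of 2 genes within a library are free of that library's scaling, though not of its length and GC trends. In all, 10 pairs were compared by an exact two-sided permutation test, which cannot give less than p = 0.33 with 2 libraries against 2. No pair could therefore pass, and p-values adjusted over the pairs were 0.667 or 1. *PELO* to *HBS1L* came to 1.03 and 1.08 in siControl, against 0.936 and 1.09 in siCNOT4, close to 1 in all 4 libraries with overlapping groups. *PELO* to *ETF1*, the rescue factor against the release factor, came to 0.182 and 0.219 in siControl, against 0.191 and 0.207 in siCNOT4, also with overlap. *ABCE1* to *ETF1* came to 0.410 and 0.356 in siControl, against 0.392 and 0.366 in siCNOT4.

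For the GTPase pair the groups did not overlap. *HBS1L* to *GSPT1* came to 0.367 and 0.377 in siControl, against 0.466 and 0.446 in siCNOT4. The difference of 0.29 in log2 ratio exceeded the gaps of 0.039 and 0.062 between replicates. *ETF1* to *GSPT1* came to 2.08 and 1.86 in siControl, against 2.29 and 2.34 in siCNOT4, a difference of 0.23 against replicate gaps of 0.16 and 0.034. Both ratios were higher in both siCNOT4 libraries, each with an exact permutation p of 0.33.

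*TCF25* to *NEMF* came to 2.87 and 4.82 in siControl, against 1.93 and 2.02 in siCNOT4. *TCF25* to *LTN1* came to 2.51 and 6.35 in siControl, against 1.43 and 1.70 in siCNOT4, a difference of -1.35 in log2 ratio beside a gap of 1.34 between the siControl replicates. *LTN1* to *NEMF* came to 1.14 and 0.760 in siControl, against 1.35 and 1.19 in siCNOT4. In these 3 pairs the groups did not overlap, but siControl replicate 1 lay nearer to siCNOT4 than siControl replicate 2 did. *RNF10* to *USP10* came to 1.10 and 1.76 in siControl, against 1.11 and 1.08 in siCNOT4, so that siControl replicate 2 alone stood apart. *ABCE1* to *PELO* overlapped between the groups as well. In all, the groups did not overlap in 5 of 10 pairs. The pairs were chosen and no such share was computed over pairs of all genes, so this count is a description.

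**Figure D4:**
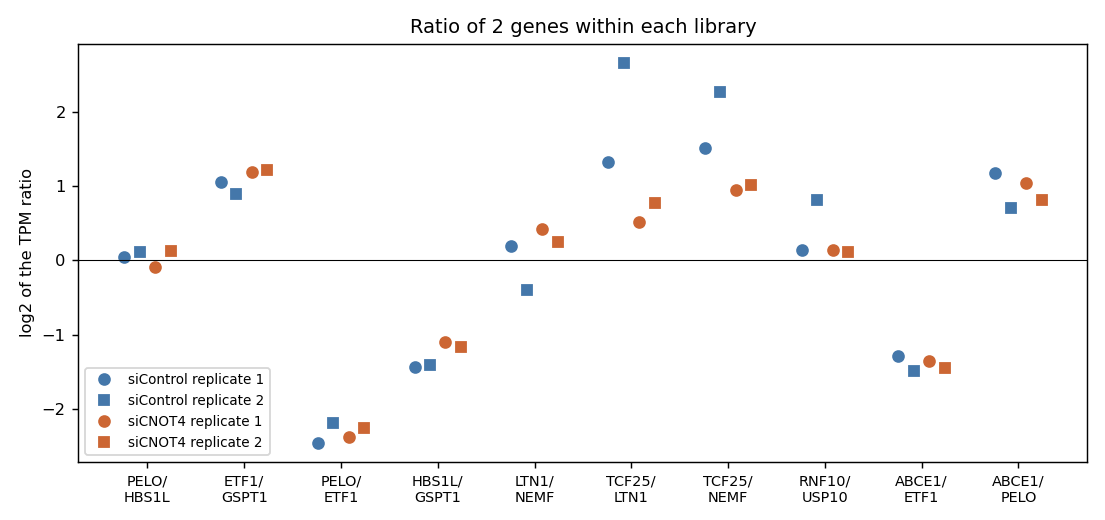
Log2 of the TPM ratio of 2 genes in each of the 4 libraries. Points are libraries. HBS1L/GSPT1 has close replicates in both groups and higher values in siCNOT4, and the ratios with TCF25 are highest in siControl replicate 2.

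Another 44 genes of collision sensing, rescue, recycling and peptide release were examined as one list, and all 44 were tested. Limma called 5 of them, 4 higher and 1 lower, against 11.3% and 1.30% of all genes. The higher genes were *EIF4E2*, a cap-binding repressor that acts with *GIGYF2* on stalled messages, *TRIP4*, a subunit of the helicase complex that splits collided ribosomes, *NPLOC4*, a cofactor of the unfoldase VCP, and *SKIC8* (listed as *WDR61*), a subunit of the SKI complex. *EIF4E2* was at 149 and 183 TPM in siControl and at 304 and 304 TPM in siCNOT4, a log2 fold change of 0.88 (limma adjusted p 0.0319). *TRIP4* was at 24.2 and 24.5 TPM in siControl and at 46.2 and 51.7 TPM in siCNOT4 (0.98, limma adjusted p 0.0414). For *NPLOC4* the values were 85.1 and 64.1 TPM against 128 and 142 TPM (0.86, limma adjusted p 0.0454), and for *SKIC8* 212 and 207 TPM against 312 and 313 TPM (0.57, limma adjusted p 0.0455).

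The lower gene was *RACK1* (listed as *GNB2L1*), a small-subunit scaffold protein of the ribosome, at 9151 and 9082 TPM in siControl and at 5661 and 5293 TPM in siCNOT4 (-0.74, limma adjusted p 0.0254). Over the list, 31 genes had both siCNOT4 libraries above both siControl libraries and 7 had both below, beside 66.4% and 10.6% of all genes. The median log2 fold change was 0.53 in the list and 0.50 in all genes. Under quantile normalization *RACK1* (-0.12, limma adjusted p 0.501) and *TRIP4* (0.53, limma adjusted p 0.113) were not called. After removal of length and GC trends *NPLOC4* (0.23, limma adjusted p 0.229) and *SKIC8* (0.30, limma adjusted p 0.0853) were not. After TMM scaling none of these 5 was called, *RACK1* being at -1.26. In that setting 2 others were called, both lower: *ZNF598*, the collision-sensing ligase (-1.10, limma adjusted p 0.0286), and *GTPBP1*, a translational GTPase (-0.80, limma adjusted p 0.0382). Both were also called lower under quantile normalization (limma adjusted p 0.0248 and 0.0318) and after removal of length and GC trends (limma adjusted p 0.0106 and 0.0112). Of the 44 list genes, limma called 2 after TMM scaling, 5 under quantile normalization and 11 after trend removal, 8 of these 11 lower. The shares of all genes called in these settings, in either direction, were 9.40%, 15.3% and 24.7%. Neither was called as deposited, *GTPBP1* being at -0.29 (limma adjusted p 0.398). As deposited *ZNF598* was at 51.4 and 40.2 TPM in siControl and at 27.8 and 32.1 TPM in siCNOT4 (-0.59, limma adjusted p 0.104).

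**Figure D5:**
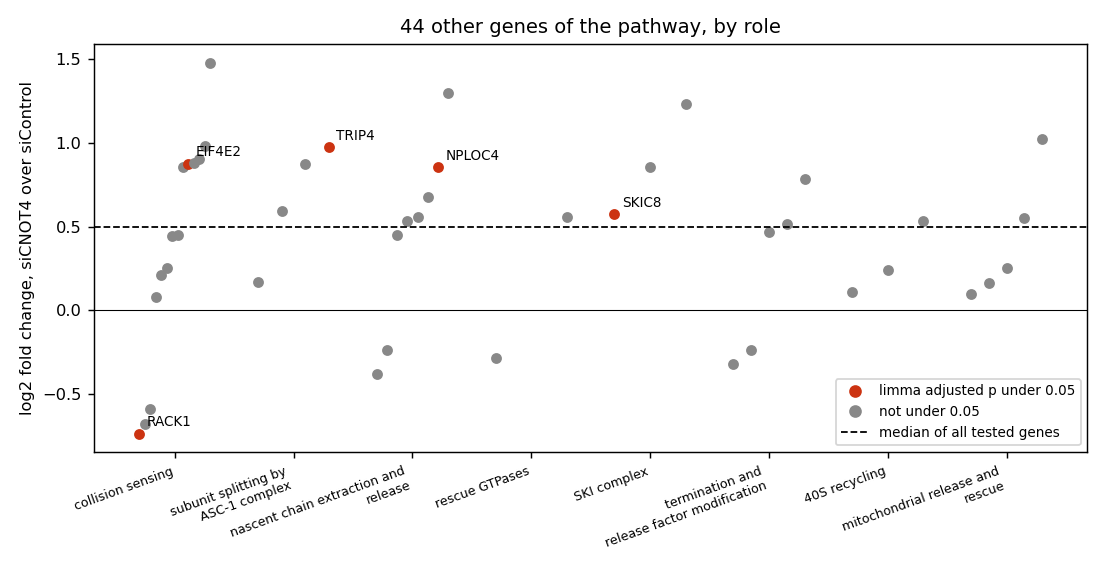
Log2 fold change, siCNOT4 over siControl, of 44 other genes of the pathway, by role. Red points have a limma adjusted p under 0.05, and the dashed line is the median of all tested genes, 0.50. Of the 5 red points, RACK1 is below 0.

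The promoters of the 10 genes were searched for shared motifs. As deposited, 9 of the 10 had higher values in both siCNOT4 libraries, beside 66.4% of all tested genes. After TMM scaling 5 did, beside 36.4%. RefSeq promoters (GRCh38.p14, 250 bases before to 50 after each start) matched all 10 genes with 12 entries. On either strand and allowing overlap, the NRF1 motif (GCGCA, then any 1 base, then GCGC) was found for 4 genes, *HBS1L*, *NEMF*, *TCF25* and *USP10*, and in 5.78% of 35116 promoters. Counts of members here are per gene, while the shares are per promoter over all genes, expressed in these cells or not. Per entry the NRF1 count is 4 of 12. The motifs were chosen with these promoters in view, so these counts are descriptions. The matches below are shown with the motif in capitals, at chr6:135054893-135054922 (minus strand), chr14:49852813-49852842 (minus), chr16:89873536-89873565 (plus) and chr16:84699915-84699944 (plus).
HBS1L: gcacagcagtGCGCATGCGCcctcagggag
NEMF: tccgccaagtGCGCCTGCGCggaggagaag
TCF25: cgccaagagtGCGCAGGCGCgcagccagct
USP10: cctgtcggccGCGCAGGCGCagcagcgggc
The motif is thus carried by *TCF25*, with the lowest fold change of the 10, and by *NEMF*, *USP10* and *HBS1L*. Whether the motif bears on the fold changes was not tested. The CRE motif TGACGTCA was found only for *ABCE1* (1.85% of promoters), the YY1 motif AAGATGGCG for *HBS1L* and *USP10* (1.75%), and the ETS motif CCGGAAG for *ETF1*, *GSPT1*, *LTN1* and *USP10* (10.3%). CCAAT was found for *ETF1*, *LTN1* and *NEMF* (34.6%), GGGCGG for *ETF1*, *GSPT1*, *TCF25*, *USP10* and *RNF10* (45.0%), and the E-box CACGTG for 0 of the 10 (7.26%). *PELO* held none of these 7 motifs in its window.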

How the data were processed

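The authors deposited 1 table of TPM values per library, which the columns' headers name and whose sums are 1000000 in each. The labels' protocols give TRIzol extraction and a stranded poly(A) kit. Per the submitters' processing notes, the tools were FastQC 0.11.2, STAR 2.5.3a and featureCounts, with hg19. The annotation, gene lengths and strand setting are not given in the sources used here. Coordinates and sequences come from GRCh38 references, matched by symbol, and no hg19 coordinate was used.

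Groups were taken from the titles. From the TPM, log2(TPM + 1) was computed for the 14208 of 20457 features with a mean of at least 1 TPM and tested with limma 3.58.1 (R 4.3.3), with eBayes on a trend, 4 libraries and the group as the single term. Benjamini-Hochberg adjustment ran over all 14208 features, with 0.05 as the threshold. The pseudocount understates changes of low genes. TMM factors, planned with a count package, were computed from the TPM by the same formula. The limma function was also tested on data simulated from the means and spreads of these libraries. Pair ratios were tested by exact permutation (scipy 1.17.1).

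Of the distinct symbols, 18438 matched GENCODE 29 directly, 957 through a RefSeq synonym and 1060 not at all. Of the features, 28 are dates made from symbols, and 2 of these repeat. Reads were estimated from the commonest step of TPM times exon length and from transcript lengths, and are approximate.

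The members, lists, pairs and rules were chosen with earlier results of these data known. Named genes were the members, *CNOT4*, list genes with an adjusted p under 0.05, listed genes that overlap a member, and *GSPT2*. *ZNF598* and *GTPBP1* were named after their values were seen. Alternatives were other pseudocounts, filters, scalings, trend removal, a replicate block and leaving out each library. TMM scaling with a library left out was added after seeing the data.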

Additional observations from a re-analysis of the deposited data

How the results depend on the processing

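Against 1792 genes called as reported, there were 558 with a pseudocount of 0.1, 908 with no filter, 147 at a mean of at least 5 TPM, 756 without the eBayes trend, 3395 after trend removal and 3655 with the replicate block. Leaving out 1 library gave 450 to 11311 genes called as deposited and 508, 525, 7171 and 10127 after TMM scaling. The members called, 0 as reported, were 3 with the replicate block, and 0 to 9 with a library left out as deposited and 0 to 6 after TMM scaling. They were 0 under every other alternative run. The 5 list genes called became 2 with TMM scaling, 11 after trend removal, 0 at a mean of at least 5 TPM, 0 without the eBayes trend, 1 with no filter, 2 with a pseudocount of 0.1 and 14 with the replicate block. With a library left out they ranged from 0 to 39, and were 0, 0, 25 and 29 after TMM scaling.

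The members' directions held under the pseudocount, filter, eBayes trend, quantile, block and left-out-library alternatives. After trend removal *PELO* (-0.012), *HBS1L* (-0.21), *ABCE1* (-0.14), *ETF1* (-0.013), *GSPT1* (-0.42), *NEMF* (-0.081) and *RNF10* (-0.020) were below 0, and after TMM scaling *GSPT1* (-0.091) and *RNF10* (-0.092) were. With TMM scaling and a library left out, *GSPT1* was -0.12, -0.11, -0.067 and -0.061, *RNF10* was -0.19, -0.13, -0.054 and 0.010, and *ABCE1* ranged from -0.028 to 0.28. The causes were not tested. With a library left out, the difference in log2 ratio ranged from -0.17 to 0.046 for *PELO* to *HBS1L*, from -0.14 to 0.13 for *PELO* to *ETF1*, from -0.11 to 0.088 for *ABCE1* to *ETF1* and from -0.25 to 0.23 for *ABCE1* to *PELO*.

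Whether the replicate numbers pair libraries is not given. The deviations of same-numbered libraries from their group means had r = 0.171 across genes, from 2 pairs, and the block's counts of calls are those above. Pairs of 2 libraries limit every p here, and each member rested on at least 1454 estimated reads per library.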
